A study of Danio rerio with 170 samples.

Results

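Fasting and growth brake genes are the subject here, a list of 7 symbols, PCK1, fbp1b, g0s2, pdk2b, IGFBP1, igfbp1a and igfbp1b, which name 6 different zebrafish genes. They were chosen by symbol with earlier results of these exposures known, so their values in the exposure comparisons are a description and carry no test of their own. In the count table of 48 hours post fertilization (hpf) 5 of them were found among 27904 genes, and in the table of the time course 6 among 26992. IGFBP1 of the first table (ENSDARG00000099351) is igfbp1a of the second, whose older name is igfbp1. The symbol pdk2b had no match of its own at 48 hpf, where 2 genes carry the human name PDK2 (ENSDARG00000020876 and ENSDARG00000059054), and both are given apart from the members.

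In a fasting vertebrate, liver and kidney make glucose from lactate, amino acids and glycerol, and the body turns to fat as fuel. PCK1 encodes the cytosolic phosphoenolpyruvate carboxykinase, the enzyme that commits carbon to gluconeogenesis, and fbp1b encodes a fructose-1,6-bisphosphatase, which acts later in the same pathway. Pyruvate dehydrogenase kinases such as pdk2b phosphorylate pyruvate dehydrogenase and so keep pyruvate out of oxidation. In mammals, G0S2 inhibits the triglyceride lipase ATGL. Insulin-like growth factor binding protein 1, encoded in zebrafish by igfbp1a and igfbp1b, binds insulin-like growth factors and slows growth, and in fish it is known to rise with fasting, low oxygen and stress hormone.

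Pools of whole Tropical 5D wild-type zebrafish were exposed from 6 hpf to per- and polyfluoroalkyl substances (PFAS) in 1% DMSO, each at a single concentration, for most of them one aimed at causing malformations in most larvae at a later age. At 48 hpf, 4 pools of 10 embryos were profiled for each of 15 PFAS by 3′ mRNA sequencing. Controls received 1% DMSO only, Control-A (n = 6, 1 pool per collection day) in Exposure Round 1 and Control-B (n = 4, a single day) in Exposure Round 2. In a separate experiment, pools of 8 animals were sampled at 48, 72 and 96 hpf after Nafion byproduct 2 (NB2) or vehicle (Control-C), with 4 value columns per group at 48 hpf and 5 at each later age.

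In Round 1, PFAS-1 was 9-Chloro-perfluorononanoic acid at 100 µM, PFAS-3 potassium perfluorooctanesulfonate (PFOS) at 13.8 µM and PFAS-5 perfluoroheptanesulfonic acid (PFHpS) at 100 µM. PFAS-6 was N-Ethylperfluorooctanesulfonamide, also at 100 µM, PFAS-7 was 1-(Perfluorofluorooctyl)propane-2,3-diol at 39.7 µM and PFAS-8 was 1H,1H,11H,11H-Perfluorotetraethylene glycol at 53 µM. PFAS-9 was 2,2,3,3-Tetrafluoropropyl acrylate at 62 µM, PFAS-10 perfluorooctanesulfonamide (FOSA) at 8 µM and PFAS-11 perfluorohexanesulfonamide (FHxSA) at 28 µM. PFAS-12 was 3H-Perfluoro-2,2,4,4-tetrahydroxypentane at 100 µM and PFAS-13 a perfluorodecanediol at 25 µM. In Round 2, PFAS-2 was NB2, an ether sulfonic acid, at 30 µM, PFAS-4 was Perfluoro-3,6,9-trioxatridecanoic acid at 50 µM, and PFAS-14 and PFAS-15 were the diacrylates of a perfluoropentanediol and a perfluorohexanediol, each at 20 µM. The NB2 time course used 73 µM. The paper states that PFAS-14 and PFAS-15 were given at a sub-teratogenic concentration, because they caused high early mortality. It also states that PFAS-12 affected fewer larvae than targeted. All Round 1 comparisons share Control-A and all Round 2 comparisons share Control-B.

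Library totals ran from 14265378 to 30363275 counts with a median of 23754031 over 70 libraries. PFAS-5 replicate 1 was left out, which leaves 69. That library had 1.74 CPM (counts scaled to library size) of PCK1 and 5.32 CPM of IGFBP1, below every control. All 5 members passed the filter on low counts. Raw counts per library ran from 33 to 561 for PCK1, from 181 to 1764 for fbp1b, from 5 to 545 for g0s2, from 101 to 4444 for IGFBP1 and from 0 to 51 for igfbp1b, so igfbp1b, at 0 in 4 libraries, was the least precise. In whole animals, a change in the amount of RNA per cell and a change in the number of cells that hold it cannot be told apart. Replicates are separate pools, and errors after ± are SDs for levels and SEs for log2 fold changes. Where groups are said not to overlap, here or in the time course, the share of all genes so separated was not computed.

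**Figure D1:**
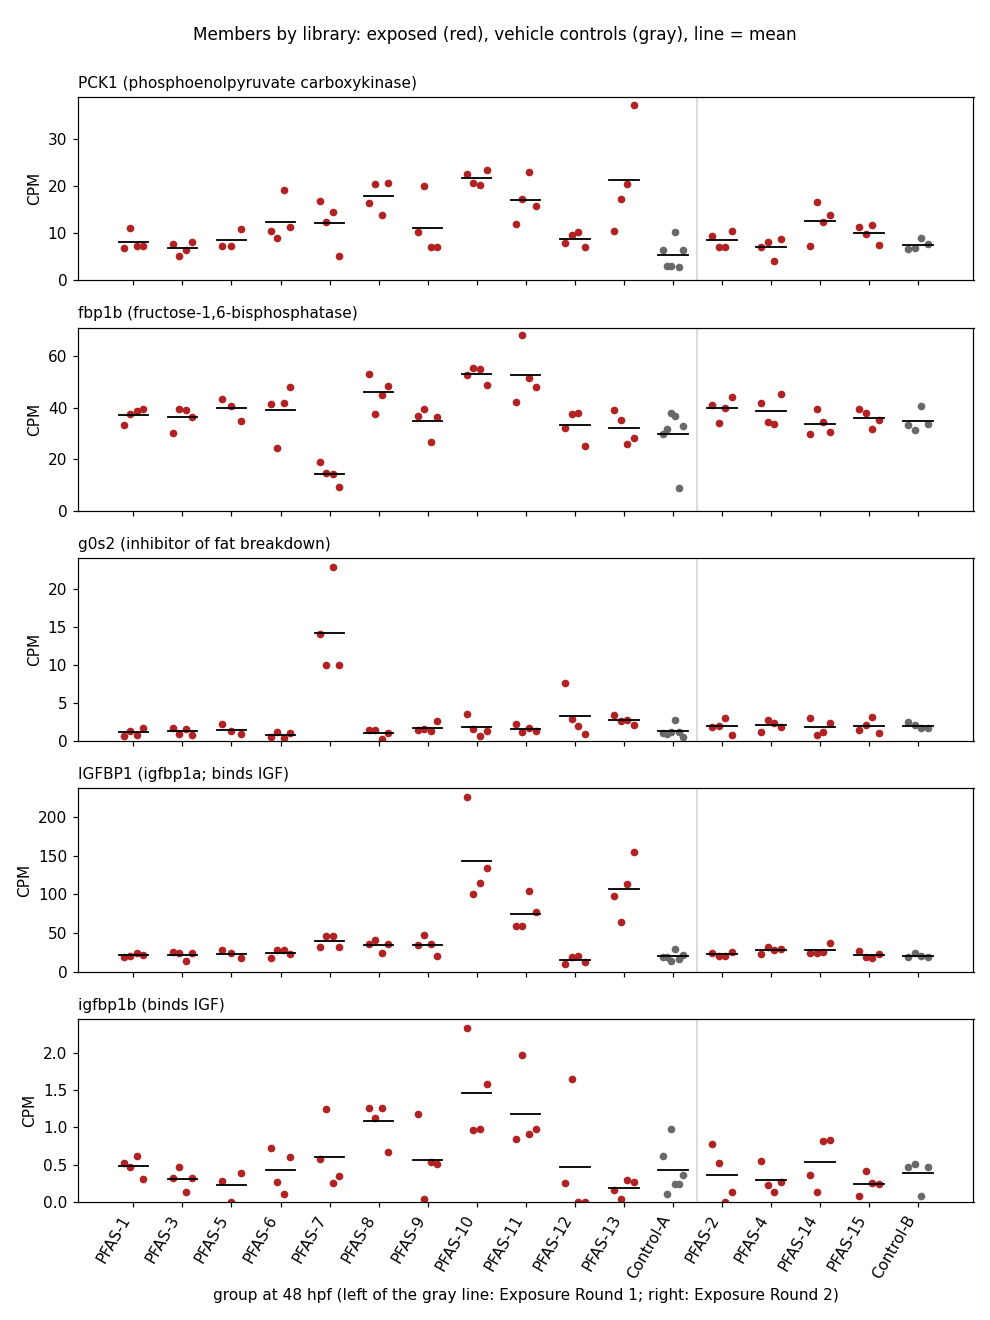
Scaled counts (CPM, axes from 0) of the 5 members in each 48 hpf library, with exposed groups (red) left of the vehicle controls of their round (gray). Points are libraries and black lines are group means. IGFBP1 reached 226 CPM in a PFAS-10 library, against 14.3 to 29.4 CPM in Control-A.

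Over the 5 members and 15 PFAS, 19 of 75 values passed an adjusted p of 0.05 in edgeR's quasi-likelihood test, 18 of them higher than in the controls and 1 lower. Of the 75 values 58 lay above 0, while the median log2 fold change over all genes ran from −0.022 (PFAS-10) to 0.002 (PFAS-15). Values of a round share its controls and are not independent. All 19 calls fell in 8 PFAS, numbers 6 to 13. In PFAS-6, PCK1 alone was called, where 0.105% of all 21928 genes were. In PFAS-7, IGFBP1, PCK1 and g0s2 were called higher and fbp1b lower, with 0.944% of all genes called. In PFAS-8, PCK1, IGFBP1 and fbp1b were called (3.84% of all genes), and in PFAS-9 PCK1 and IGFBP1 (6.9%). The same 3 genes as in PFAS-8 were called in PFAS-10 and in PFAS-11, each with 14.1% of all genes called. In PFAS-12 only g0s2 was called (14.2%), and in PFAS-13 PCK1 and IGFBP1 (16.2%). No member was called in PFAS-3 (0.041%), PFAS-4 (0.00456%) or PFAS-5 (0.0547%), nor in PFAS-1, PFAS-2, PFAS-14 and PFAS-15, where 0% of genes passed. In those last 4 comparisons edgeR gave an unadjusted p under 0.05 for 911, 905, 684 and 674 genes in that order, and DESeq2 called no member there either. The rule that lists the members rests on these comparisons, so nothing is read from the shares.

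**Figure D2:**
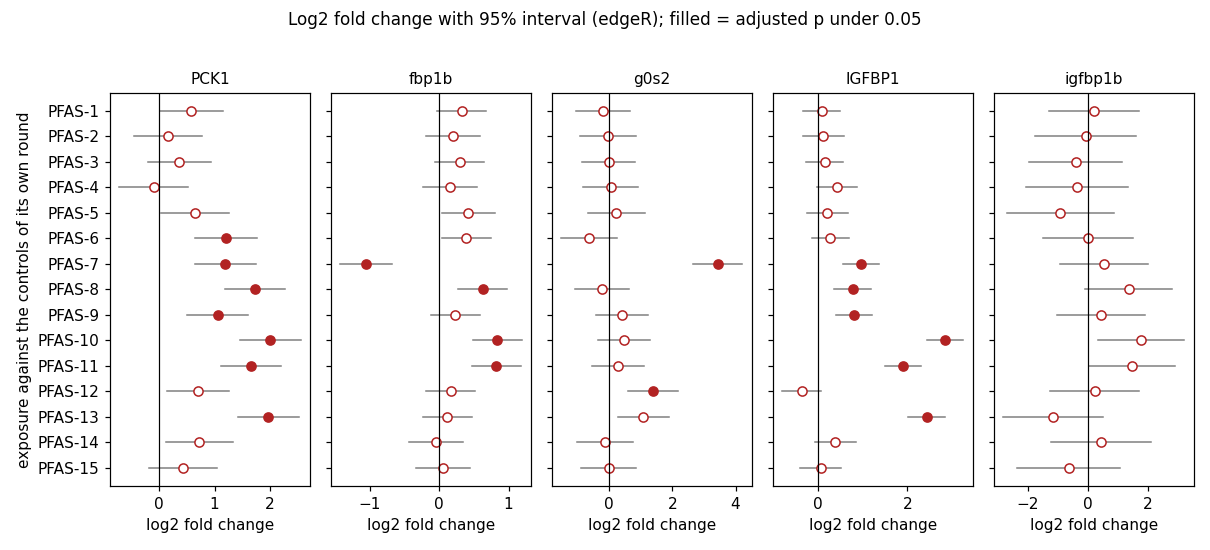
Log2 fold change of each 48 hpf member in each of the 15 PFAS against same-round controls, with points for estimates and lines for their 95% intervals (edgeR), filled where the adjusted p is under 0.05. PCK1 and IGFBP1 are filled in PFAS-7 to PFAS-11 and PFAS-13, and fbp1b in PFAS-7 lies below 0.

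PCK1 was the member called in most exposures, 7 of 15. It measured 22.5, 20.7, 20.4 and 23.4 CPM under PFAS-10, against 6.51, 2.97, 3.07, 10.4, 2.95 and 6.54 CPM in Control-A. Every PFAS-10 library was above every control, and the log2 fold change was 2.01 ± 0.27. Under PFAS-13 the libraries gave 10.4, 17.3, 20.5 and 37.2 CPM, the widest spread among them, and the change was 1.97 ± 0.27. Under PFAS-8 the levels were 16.5, 20.6, 13.8 and 20.7 CPM, and under PFAS-11 12.0, 17.3, 23 and 15.8 CPM. Those exposures also lay wholly above Control-A, with changes of 1.73 ± 0.27 and 1.66 ± 0.27.

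Smaller PCK1 differences overlapped the controls. PFAS-6 gave 10.5, 8.95, 19.1 and 11.4 CPM, a change of 1.21 ± 0.28. That call was lost without its replicate 3 (0.93, adjusted p = 0.584 in edgeR), without its replicate 4 (1.25) and without Control-A replicate 2, 3 or 5 (1.08 to 1.09). PFAS-7 gave 16.8, 12.5, 14.6 and 5.26 CPM, so 3 of 4 libraries exceeded the controls, with a change of 1.19 ± 0.28. PFAS-9 gave 10.3, 20.0, 7.09 and 7.21 CPM and 1.06 ± 0.28, and this call rested on replicate 2, since without it the change was 0.62 and the adjusted p 0.293. PFAS-12 measured 7.86, 9.67, 10.3 and 7.14 CPM, and the change of 0.70 ± 0.28 did not pass. PFAS-12 passed without Control-A replicate 4 (1.00, adjusted p = 0.0102). With the collection day as a block PFAS-12 passed (0.79, adjusted p = 0.047) and PFAS-6 did not (1.15, adjusted p = 0.0795). In Round 2, PFAS-14 gave 7.40, 16.7, 12.4 and 13.9 CPM, against 6.78, 6.92, 8.98 and 7.81 CPM in Control-B. That difference of 0.72 ± 0.31 did not pass the test either.

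The other gluconeogenic member, fbp1b, was called higher in 3 exposures and lower in 1. It measured 52.7, 55.3, 54.8 and 49 CPM under PFAS-10 and 42.4, 68.1, 51.5 and 48.2 CPM under PFAS-11, against 29.9, 31.7, 38, 36.7, 8.85 and 32.9 CPM in Control-A. Neither exposure overlapped the controls, and the log2 fold changes were 0.84 ± 0.18 and 0.83 ± 0.18. PFAS-8 gave 53.1, 37.4, 44.8 and 48.3 CPM, which is 0.63 ± 0.18. Under PFAS-7 fbp1b was low in all libraries, at 18.9, 14.8, 14.3 and 9.16 CPM, a change of −1.05 ± 0.19. Only Control-A replicate 5, at 8.85 CPM, was lower still.

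Control-A replicate 5 bears on each of these values. Without it the fbp1b change was −1.24 ± 0.15 in PFAS-7, 0.65 ± 0.14 in PFAS-10 and 0.64 ± 0.14 in PFAS-11, all still called, while PFAS-8 was at 0.44 with an adjusted p of 0.0773 (edgeR). The PFAS-8 call was also lost without its own replicate 1 (0.55) or replicate 4 (0.60). In that control library the 9 markers of the yolk syncytial layer, the tissue that packs yolk lipid and protein for the embryo, summed to 2025 CPM. The other Control-A libraries summed to between 6742 and 7605 CPM. In PFAS-7 the marker sums of replicates 1 to 4 were 8047, 6226, 5920 and 3563 CPM. Of the 9 markers 2 were called lower (0.944% of all genes called), and the replicate with the lowest fbp1b also had the lowest markers. Under PFAS-10, with fbp1b higher, 2 of 9 were also called lower (14.1% of all genes called), at sums of 5839 to 6715 CPM. Under PFAS-11 1 was higher and 1 lower, at 7452 to 8302 CPM. Under PFAS-8 no marker was called, at 6940 to 9336 CPM. Another low sum was that of PFAS-6 replicate 2, 3812 CPM, with fbp1b at 24.5 CPM, the lowest of its group. In PFAS-6 0 markers were called (0.105% of all genes). None of the 9 markers was at 0 in any group. Their part in the fbp1b values was not tested.

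**Figure D3:**
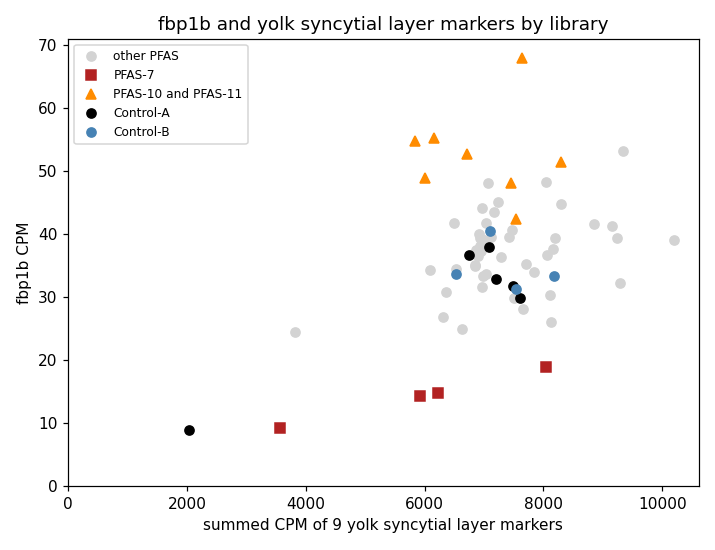
Level of fbp1b (CPM) against the summed level of 9 yolk syncytial layer markers (CPM) in each 48 hpf library, with PFAS-7 as red squares, PFAS-10 and PFAS-11 as orange triangles, other PFAS in light gray, Control-A in black and Control-B in blue. The PFAS-7 libraries lie between 9.16 and 18.9 CPM of fbp1b, and Control-A replicate 5 has the lowest marker sum, 2025 CPM. PFAS-7 replicate 4 (3563 CPM) and PFAS-6 replicate 2 (3812 CPM) also have low sums.

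Of the kinase genes named PDK2 at 48 hpf, ENSDARG00000020876 measured 30.0, 23.4, 18.6 and 17.7 CPM under PFAS-10, against 10.4, 8.87, 6.22, 8.27, 6.67 and 5.91 CPM in Control-A. All exposed libraries were above all controls, with a log2 fold change of 1.53 ± 0.17. PFAS-11 (0.87 ± 0.17) and PFAS-13 (0.49 ± 0.18) were also called. The second gene, ENSDARG00000059054, had few reads and was called only in PFAS-10, at 3.41, 1.2, 3.67 and 2.13 CPM, against 0.191 to 0.854 CPM in Control-A, a change of 2.27 ± 0.51. Which of the pair is pdk2b was not settled from the tables used here.

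The lipase inhibitor g0s2 had a pattern unlike the glucose genes, with its calls in PFAS-7 and PFAS-12. Under PFAS-7 it measured 14.1, 10.0, 23 and 10.0 CPM, against 1.07, 1.00, 1.24, 2.80, 1.17 and 0.575 CPM in Control-A. The groups were far apart, and the log2 fold change was 3.43 ± 0.39, the largest of any member at 48 hpf. PFAS-12 gave 7.72, 2.92, 1.97 and 0.98 CPM and a change of 1.39 ± 0.39, which rested on replicate 1. Without that library the change was 0.60 with an adjusted p of 0.443 (edgeR). PFAS-13 gave 3.51, 2.67, 2.85 and 2.12 CPM, each above 5 of the 6 controls, and its change of 1.08 ± 0.40 missed the limit at an adjusted p of 0.0523. With the collection day as a block it passed (1.23, adjusted p = 0.0163), and so it did without Control-A replicate 4 (1.45). In the remaining exposures the fitted change lay between −0.63 (PFAS-6) and 0.46 (PFAS-10).

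IGFBP1, the binding protein gene, was called in 6 exposures and had the highest levels of any group under PFAS-10. There it measured 226, 100.0, 114 and 134 CPM, against 18.4, 19.2, 14.3, 29.4, 16.5 and 21.9 CPM in Control-A, a log2 fold change of 2.84 ± 0.20. The lowest PFAS-10 library stood well above the highest control. PFAS-13 measured 97.4, 64.3, 113 and 155 CPM (2.43 ± 0.20) and PFAS-11 59.4, 58.8, 104 and 76.6 CPM (1.90 ± 0.20), and neither overlapped the controls. Group means were 143 ± 56.7 CPM in PFAS-10, 107 ± 37.6 CPM in PFAS-13 and 74.7 ± 21.1 CPM in PFAS-11, so the libraries of neighbours in this order overlapped.

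A lower tier held PFAS-7, PFAS-9 and PFAS-8. PFAS-7 measured 31.3, 46.6, 46.7 and 31.5 CPM, all above the controls, with a change of 0.97 ± 0.20. PFAS-9 gave 35, 48.1, 35.2 and 20.3 CPM (0.80 ± 0.20), and without replicate 2 its change was 0.61 at an adjusted p of 0.114 (edgeR). PFAS-8 gave 35.7, 40.4, 24.2 and 36.2 CPM (0.78 ± 0.20), and without replicate 2 its change was 0.68 at an adjusted p of 0.0847. In PFAS-12, with 14.2% of all genes called, IGFBP1 was not among them, at 9.65, 19.4, 20.7 and 12.2 CPM and −0.37 ± 0.21. Control-B measured 19.2, 24.4, 20.8 and 19.1 CPM, and the Round 2 exposures reached at most 36.8 CPM in a PFAS-14 library.

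The second binding protein gene, igfbp1b, was near the limit of detection at 48 hpf and was called in no exposure. It measured 2.34, 0.963, 0.974 and 1.59 CPM under PFAS-10, against 0.612, 0.111, 0.978, 0.24, 0.242 and 0.366 CPM in Control-A. The change of 1.77 ± 0.72 (95% interval 0.34 to 3.21) did not pass, and neither did 1.47 ± 0.72 in PFAS-11, 1.35 ± 0.72 in PFAS-8 or −1.16 ± 0.83 in PFAS-13. The PFAS-10 call appeared under 3 alternatives, with the controls of both rounds as 1 group (1.82, adjusted p = 0.0309 in edgeR), with only the groups compared (1.78, adjusted p = 0.0377) and without Control-A replicate 3 (2.20, adjusted p = 0.0441), so it lay close to the limit.

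**Figure D4:**
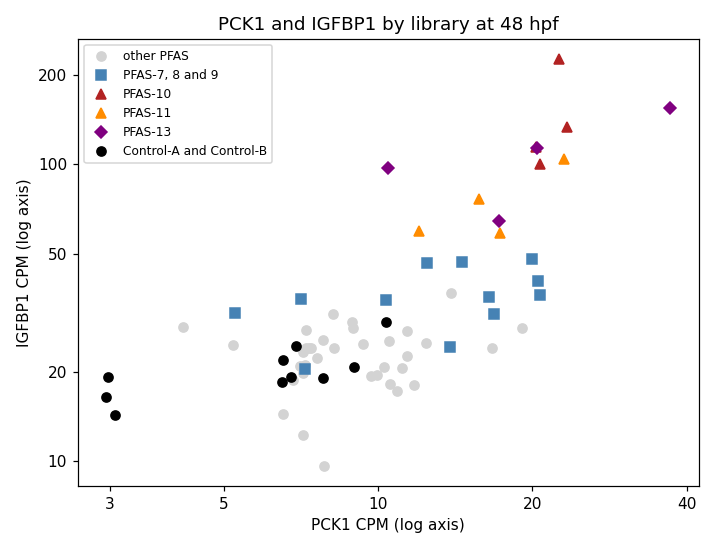
PCK1 against IGFBP1 (both CPM, log scales) in each 48 hpf library, with PFAS-7, 8 and 9 in blue, PFAS-10 in red, PFAS-11 in orange, PFAS-13 in purple, other PFAS in light gray and controls in black. PFAS-10, PFAS-11 and PFAS-13 occupy the upper right, while PFAS-8 reaches 20.7 CPM of PCK1 with IGFBP1 between 24.2 and 40.4 CPM.

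Across the 69 libraries, after the mean of the controls of each round was subtracted from log2 CPM, PCK1 and IGFBP1 had the highest correlation of any pair of members (Pearson's r = 0.73), and fbp1b and g0s2 had the lowest (r = −0.41). These r describe libraries that share exposures and controls. Among 12558 named genes with a mean log2 CPM over 1, those most like IGFBP1 were sesn2 (r = 0.89), a stress-induced inhibitor of growth signalling, SLC7A3 (0.88), a cationic amino acid transporter, and AARS1 (0.88), the alanyl-tRNA synthetase. Most like PCK1 were zgc:162608 (0.82), SLC43A2 (0.80), an amino acid transporter, and ARRDC3 (0.79). For fbp1b they were PC (0.84), the pyruvate carboxylase of gluconeogenesis, MASP2 (0.81) and the lipid transporter abca1b (0.81). For g0s2 they included the autophagy receptor SQSTM1 (0.70) and RGS4 (0.58), and for igfbp1b zgc:154054 (0.58) and robo4 (0.57).

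Pairs of related chemicals at the same concentration were also compared, 10 member values in all, none of which passed edgeR's test. These comparisons use the same exposed libraries and the same fit as those with the controls, so they too are a description. PFAS-14 and PFAS-15, diacrylates whose perfluorinated chains differ in length, were compared at 20 µM. PCK1 differed by 0.30 with a 95% interval of −0.30 to 0.90, IGFBP1 by 0.33 (−0.13 to 0.78), fbp1b by −0.10 (−0.49 to 0.29), g0s2 by −0.12 (−1.01 to 0.77) and igfbp1b by 1.08 (−0.64 to 2.79), on the log2 scale. PFAS-5 and PFAS-6, a sulfonic acid and an N-ethyl sulfonamide with chains of unequal length, were compared at 100 µM. PCK1 differed by −0.56 (−1.22 to 0.10), IGFBP1 by −0.07 (−0.56 to 0.42), fbp1b by 0.03 (−0.39 to 0.45), g0s2 by 0.86 (−0.15 to 1.87) and igfbp1b by −0.93 (−2.82 to 0.97). In both pairs 0% of all genes passed, and unadjusted p fell under 0.05 for 582 and 837 of them. These intervals do not show that the chemicals act alike. PFAS-10 at 8 µM and PFAS-11 at 28 µM, sulfonamides with different chain lengths, were not dosed alike and were not compared.

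In the NB2 time course the members were called mainly at the last age. Its values are normalized, variance-stabilized log2 expression, on which limma was used. Near the lowest value of the table, their differences can be smaller than log2 fold changes of counts. The gene fbp1b was at that lowest value in 27 of 28 columns and was not tested. In the count table it had 181 to 1764 reads in every library at 48 hpf, so the lowest value is not read as absent expression, and the cause of this gap was not tested. At 48 hpf none of the other 5 members was called, with 0% of 24853 genes called (1195 at an unadjusted p under 0.05). At 72 hpf pck1 and pdk2b were called higher (0.728% of all genes), and at 96 hpf pck1, pdk2b, g0s2, igfbp1a and igfbp1b were (18.4% of all genes), which makes 7 of 15 member values.

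For igfbp1a the 5 NB2 columns at 96 hpf were at 12.47, 11.68, 11.97, 12.04 and 12.09, against 8.87, 8.35, 8.26, 8.34 and 8.34 in Control-C. The groups lay far apart, with a log2 difference of 3.62 ± 0.24. At 72 hpf the NB2 columns were at 8.47, 9.48, 7.93, 10.00 and 7.96, against 7.72, 8.09, 8.83, 7.68 and 7.91 in Control-C, so the exposed columns split and overlapped the vehicle (0.72 ± 0.24). At 48 hpf the means were 7.79 ± 0.09 in NB2 and 7.50 ± 0.22 in Control-C, a difference of 0.29 ± 0.27.

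The paralog igfbp1b stood at 9.92, 8.85, 8.98, 9.84 and 9.70 under NB2 at 96 hpf, against 5.66, 5.93, 5.69, 6.11 and 5.24 in Control-C. Every exposed column was above every vehicle column, by 3.73 ± 0.24 on the log2 scale. This was close to the value for igfbp1a, whose vehicle columns lay higher. At 72 hpf the igfbp1b difference was 0.35 ± 0.24.

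For pdk2b the NB2 columns at 96 hpf were at 11.35, 9.89, 10.82, 11.17 and 11.00, against 7.22, 6.53, 6.77, 6.79 and 6.36 in Control-C. At 4.11 ± 0.27 this was the greatest difference among the members on this scale. At 72 hpf it was at 6.65, 6.77, 5.34, 7.23 and 5.09 under NB2, against 5.28, 4.80, 4.67, 4.76 and 4.67 in Control-C, which is 1.38 ± 0.27. The related kinase gene pdk2a, not a member, differed by 0.90 ± 0.18 at 96 hpf.

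PCK1, written pck1 in this table, was at 11.29, 10.34, 10.73, 11.14 and 10.87 under NB2 at 96 hpf, against 8.80, 8.24, 8.59, 8.27 and 8.25 in Control-C, a difference of 2.45 ± 0.16. At 72 hpf it was at 7.80, 7.57, 7.05, 7.80 and 7.15 under NB2, against 6.66, 6.40, 6.73, 6.88 and 7.07 in Control-C (0.72 ± 0.16). Columns C and E of NB2 were the 2 lowest at 72 hpf for pck1, pdk2b, igfbp1a and igfbp1b. The call of pdk2b at 72 hpf was lost without NB2 column D (1.13, adjusted p = 0.0546 in limma) and in limma with no mean trend (adjusted p = 0.0516). That of pck1 was lost without NB2 column D (0.64, adjusted p = 0.0786), NB2 column B (0.70, adjusted p = 0.0546) or Control-C column B (0.64, adjusted p = 0.0739), and with no mean trend (adjusted p = 0.0753). Without NB2 column C igfbp1a passed at 72 hpf (0.93, adjusted p = 0.0277).

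At 96 hpf g0s2 was at 6.30, 6.59, 6.20, 5.86 and 5.97 under NB2, against 4.74, 4.59, 4.77, 4.68 and 4.30 in Control-C. It had no overlap with the vehicle and, on this scale, the smallest difference of the 5, 1.57 ± 0.20. At 72 hpf the difference was −0.14 ± 0.20. The 96 hpf Control-C columns of g0s2 lay nearer the lowest value of the table than those of pck1, pdk2b, igfbp1a and igfbp1b. The order of the members by difference is therefore not read as an order of effect.

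**Figure D5:**
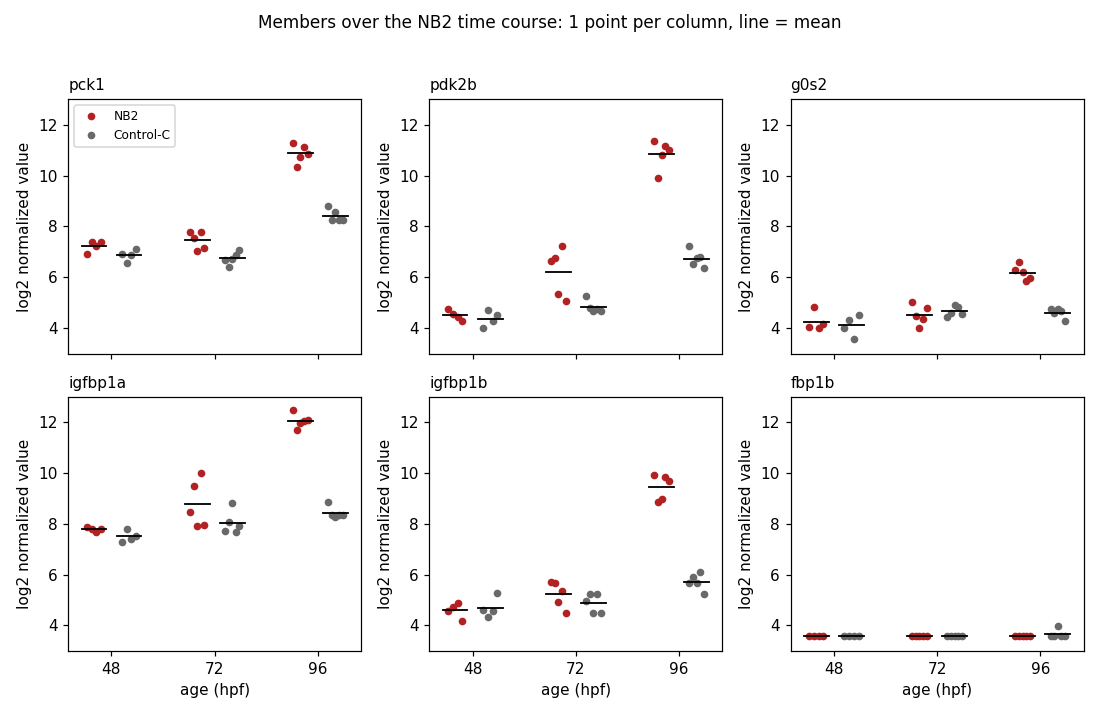
Normalized log2 expression of the members in each NB2 and Control-C column at 48, 72 and 96 hpf, with a point per column (red for NB2, gray for Control-C) and a black line at each group mean. At 96 hpf all 5 NB2 columns lie above all 5 Control-C columns for every member but fbp1b. At that age 18.4% of all genes were called, and the share of all genes so separated was not computed. The gene fbp1b is at the lowest value of the table in 27 of 28 columns, although it had reads in every 48 hpf count library.

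The vehicle animals give the normal course of these genes, and 4 of 10 member values passed limma's test. The rule did not use the comparison between ages. The same Control-C columns are part of every NB2 comparison it did use, so these values too are a description. Between 72 and 96 hpf pck1 rose in Control-C by 1.68 ± 0.16 (adjusted p = 1.19e-10), pdk2b by 1.90 ± 0.27 (adjusted p = 1.67e-06) and igfbp1b by 0.84 ± 0.24 (adjusted p = 0.00908), where 17.6% of all genes were called. For pck1 and pdk2b all 5 columns at 96 hpf were above all 5 at 72 hpf, and the share of all genes so separated was not computed. The change of igfbp1a was 0.39 ± 0.24 and that of g0s2 −0.06 ± 0.20, neither called. Between 48 and 72 hpf, with 25.6% of all genes called, g0s2 alone passed, at 0.56 ± 0.21 (adjusted p = 0.0494). That call was lost without any 1 of 6 of the 9 columns, with values of 0.38 (without column D of 48 hpf, adjusted p = 0.252) to 0.59, and with only the groups compared (adjusted p = 0.0537). In that last fit igfbp1a passed (0.54, adjusted p = 0.00979). In column D of 48 hpf g0s2 was at the lowest value of the table.

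Other genes of these pathways were called mostly in PFAS-10 to PFAS-13, where 14.1%, 14.1%, 14.2% and 16.2% of all genes were called, and PFAS-10 had the most list genes called higher. In the list of the insulin-like growth factor (IGF) and insulin axis 10 of 27 tested genes other than members were higher and 0 lower under PFAS-10, with a median log2 fold change of 0.57 against −0.02 over all genes. They include STC2 (1.76 ± 0.17, adjusted p = 1e-12 in edgeR), a secreted inhibitor of IGF release, and the insulin receptor substrates IRS1 (0.42 ± 0.11) and IRS2 (0.60 ± 0.15). STC2 was also higher under PFAS-11 (0.53 ± 0.18) and PFAS-13 (1.54 ± 0.17) and lower under PFAS-12 (−0.54 ± 0.19). IGF1, the growth factor itself, was lower under PFAS-8 (−2.27 ± 0.48), PFAS-11 (−1.31 ± 0.44), PFAS-12 (−1.86 ± 0.46) and PFAS-13 (−1.51 ± 0.44). In PFAS-8, with 3.84% of all genes called, IGF1 was the only one of the list. In PFAS-11 the list had 5 higher and 3 lower, in PFAS-12 3 higher and 4 lower, and in PFAS-13 5 higher and 1 lower.

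In the growth brake list, 11 of 23 genes (47.8%, against 14.1% of all genes) were higher and 0 lower under PFAS-10, with a median of 0.26. TRIB3, a stress-induced pseudokinase, was up by 1.77 ± 0.17 and EIF4EBP3, which restrains translation, by 1.23 ± 0.13. The counts were 6 higher and 2 lower in PFAS-11, 4 and 3 in PFAS-12, and 5 and 6 in PFAS-13, as many in all as in PFAS-10. EIF4EBP3 was higher in all 4, while the transcription factor gene foxo3b was lower in PFAS-8, PFAS-9 (−0.71 ± 0.10), PFAS-11, PFAS-12 and PFAS-13. The circadian gene PER1 was lower under PFAS-12 (−1.16 ± 0.10) and PFAS-13 (−0.35) and higher under PFAS-10 (0.32). Of 15 hypoxia response genes 7 were higher and 1 lower under PFAS-10 (53.3% called, against 14.1%) and 3 higher and 4 lower under PFAS-12 (46.7%, against 14.2%). The PFAS-10 calls include VEGFA (1.31 ± 0.14) and the glycolytic regulator PFKFB3 (1.81 ± 0.21), while PFKFB4 was lower (−0.60 ± 0.14). LDHA, the lactate dehydrogenase, was lower in PFAS-9, PFAS-11 (−0.78 ± 0.09) and PFAS-12.

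The rest of the gluconeogenesis list was called in both directions. Only 14 of its 21 names were found at 48 hpf, which is 66.7%, and 12 of these are not members. Under PFAS-10 3 of the 12 were higher and 1 lower, with a median of −0.12, and under PFAS-13 2 were higher and 2 lower, which is 33.3% in each against 14.1% and 16.2% of all genes. Under PFAS-12 0 were higher and 3 lower, with a median of −0.38 against −0.01 over all genes. The mitochondrial isoenzyme pck2 was higher in PFAS-8, PFAS-9, PFAS-10 (0.74 ± 0.15), PFAS-11 and PFAS-13. FBP2, the muscle isoenzyme, was lower in PFAS-11 (−0.91 ± 0.11), PFAS-12 (−0.54 ± 0.10) and PFAS-13 (−0.98 ± 0.11), and the tyrosine aminotransferase gene TAT was lower in PFAS-11 and PFAS-12 (−1.97 ± 0.48). In those 3 exposures 7, 5 and 6 of 11 skeletal muscle markers were lower, in the order PFAS-11, PFAS-12 and PFAS-13. Under PFAS-12 1 marker was also higher. Of all genes, 14.1%, 14.2% and 16.2% were called in the same order. Under PFAS-10 4 of the 11 were also lower and 0 higher (14.1% of all genes called). Under PFAS-9 3 were lower and 1 higher (6.9%), and under PFAS-8 1 was lower (3.84%). The summed markers under PFAS-12, 21783 to 24003 CPM, overlapped Control-A at 22756 to 26931 CPM. They were 18635 to 20626 CPM under PFAS-11 and 18881 to 22914 CPM under PFAS-13. The part of these markers in the FBP2 values was not tested. FOXO1 was higher in PFAS-10 (0.45 ± 0.10) and lower in PFAS-12 (−0.44 ± 0.10).

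The 2 genes named PDK2, both called higher under PFAS-10, were counted apart from the fuel switch list at 48 hpf. For NB2 pdk2a was kept in it. Of the remaining 18 genes 2 (11.1%, against 14.1% of all genes) were called higher under PFAS-10. These were cpt1ab (0.85 ± 0.13), which lets fatty acids into mitochondria and was also higher under PFAS-8 (0.44 ± 0.13) and PFAS-11 (0.68 ± 0.13), and PDK4 (0.74 ± 0.17). PDK4 was lower under PFAS-13 (−0.49 ± 0.18). Of 10 lipolysis genes, those called in PFAS-7, the exposure with the highest g0s2, were the lipid droplet coat genes PLIN2 (1.90 ± 0.27) and plin3 (1.59 ± 0.30). That is 20% of the list, against 0.944% of all genes. PLIN2 was called in no other exposure, and plin3 also in PFAS-10 (1.46) and PFAS-11 (1.28). The hormone-sensitive lipase gene lipea was higher in PFAS-10 to PFAS-13, between 0.74 ± 0.27 (PFAS-13) and 1.00 ± 0.26 (PFAS-12). In those exposures 20%, 20%, 10% and 10% of the list were called, against 14.1%, 14.1%, 14.2% and 16.2% of all genes.

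The liver markers, all 10 detected in every group, summed to 565 to 618 CPM under PFAS-10, where no liver marker was called. In Control-A, replicate 5 summed to 189 CPM and the other libraries to between 719 and 789 CPM. All PFAS-10 libraries thus lay below every control but replicate 5, with a median log2 fold change of −0.26. Under PFAS-13, with high PCK1 and IGFBP1, 4 of the 10 were higher and 3 lower (median 0.46), and the sums of 856 to 1064 CPM lay above all of Control-A. Under PFAS-11 2 were higher and 1 lower, at 694 to 861 CPM. Of all genes, 14.1%, 14.1% and 16.2% were called in PFAS-10, PFAS-11 and PFAS-13, in that order. Under PFAS-12, with neither PCK1 nor IGFBP1 called, 1 liver marker was higher and 1 lower, at 771 to 1077 CPM (14.2% of all genes). PCK1 and IGFBP1 were both called in PFAS-7, PFAS-8 and PFAS-9. There the liver markers had 1 higher and 1 lower (396 to 805 CPM, 0.944%), 1 higher (627 to 878 CPM, 3.84%) and 3 lower (674 to 905 CPM, 6.9%), in that order. Kidney tubule markers were higher in 3 of 7 genes under PFAS-10 and in 5 of 7 under PFAS-11. Their summed levels were 126 to 180.0 CPM and 170 to 179 CPM, against 119 to 143 CPM in Control-A. Under PFAS-13 3 of these 7 were higher and 1 lower, at 126 to 147 CPM. Pancreatic endocrine markers were higher in 3 of 5 genes under PFAS-13, at 78.1 to 83.4 CPM, against 34.7 to 62.6 CPM in Control-A. The part of these tissues in the PCK1 and IGFBP1 values was not tested.

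In the NB2 course the same lists were called mostly at 96 hpf, where 18.4% of all genes were called. The growth brake list had 14 of 21 genes higher and 2 lower (median 0.60, against −0.02 over all genes), the IGF and insulin axis 11 of 29 higher and 2 lower (0.26), the hypoxia response 9 of 14 higher and 0 lower (0.50), the gluconeogenesis list 7 of 19 higher and 1 lower (0.22), the fuel switch list 6 of 19 higher and 1 lower (0.19) and lipolysis 1 of 9 higher (0.07), which is 11.1%. Examples are egln3, an oxygen sensor gene (1.25 ± 0.14), the lipase gene pnpla2 (1.14 ± 0.20), irs2a (0.97 ± 0.13), the sestrin gene sesn1 (0.76 ± 0.07) and pck2 (0.55 ± 0.12). In Control-C between 72 and 96 hpf 17.6% of all genes were called. The growth brake list had 13 of 21 higher, per1a (1.92 ± 0.20) among them, and 1 lower. The gluconeogenesis list had 11 of 19 higher, fbp2 (1.17 ± 0.13) among them, and 1 lower. From the IGF and insulin axis, whose counts between these ages are not reported here, ghrb was called higher (1.27 ± 0.17). Summed liver markers at 96 hpf had log2 values of 12.87 to 13.30 under NB2 and 13.11 to 13.39 in Control-C, and these ranges overlap, with 2 of 10 markers higher and 2 lower. Summed skeletal muscle markers were at 16.92 to 17.25 under NB2 and 17.35 to 17.48 in Control-C, with no overlap and 3 of 6 markers lower. Of 8 yolk syncytial layer markers 1 was higher and 2 were lower under NB2 at that age. The part of these tissues in the member values was not tested.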

How the data were processed

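RNA of pooled whole embryos was sequenced as 3′ mRNA libraries, and the authors aligned the reads to GRCz11 with STAR and counted them per gene and strand with HTSeq (versions not given in the sources used here). The deposited counts at 48 hpf are raw counts from which the authors had removed genes with low counts. The 2 runs of each library were added up, and PFAS-5 replicate 1 was left out, as the authors did. The deposited log2 values of the NB2 experiment had been variance-stabilized by the authors with DESeq2, so no count model was used on them. The authors' own fold changes, p-values and enrichment tables were not used, and 0 columns of per-sample values went unmapped.

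Counts were tested with edgeR 4.0.16 (quasi-likelihood F test, TMM scaling, filterByExpr at its settings of 10 counts and a total of 15) in 1 fit over 69 libraries and 21928 genes. CPM are TMM-scaled. Controls of the same round served each PFAS. The NB2 values were tested with limma 3.58.1 with a mean trend over 28 columns and the 24853 genes that exceeded the lowest value in 4 or more of them. "Called" means a Benjamini-Hochberg adjusted p under 0.05 over all genes of a comparison (R 4.3.3). The tests were also run on simulated data, and the outcome is not reported here. The values simulated for limma had the same spread in all genes and no lowest value, so they differ from the NB2 values. Alternatives were DESeq2 1.42.0, its size factors, no filter, no mean trend in limma, other sample sets, blocks and leaving out each replicate.

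Members and gene lists were chosen with earlier results of these data known. The text names every member, up to 4 genes per list called in the most PFAS, up to 2 per list for the vehicle ages, and the 3 named genes most correlated with each member, of which some are not reported here. Symbols came from reference tables by gene identifier, for 25504 genes at 48 hpf and 23971 in the NB2 table. Capitals mark names of human counterparts. No coordinates are given, since the annotation used for names (GRCz12tu) is of another build than the counts.

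The labels' replicate numbers are shared between groups, and the study's sampling records give the collection day of each Round 1 library. Deviations from group means correlated at a mean of 0.036 within a day and −0.008 between days, over 12811 genes. The day pairs libraries through the records, and its block is printed where it changes a call.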

Additional observations from a re-analysis of the deposited data

Results flagged for a closer look

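Of 111 groups of 4 to 6 values, 11 held a sample far from the rest by Dixon's criterion, which chance meets in about 1 group in 20. At 48 hpf these were PCK1 in PFAS-1 replicate 2 (11.2 CPM, the others 6.82 to 7.23), fbp1b in Control-A replicate 5 (8.85 CPM, the others 29.9 to 38) and g0s2 in Control-A replicate 4 (2.80 CPM, the others 0.575 to 1.24). IGFBP1 stood apart in PFAS-3 replicate 3 (14.4 CPM, the others 24 to 25.6) and in PFAS-14 replicate 4 (36.8 CPM, the others 24 to 24.9). For igfbp1b it was PFAS-11 replicate 2 (1.97 CPM, the others 0.852 to 0.986), PFAS-12 replicate 2 (1.65 CPM, the others 0 to 0.255) and Control-B replicate 3 (0.0881 CPM, the others 0.470 to 0.513). In the NB2 table it was fbp1b in Control-C column C at 96 hpf (3.99, the others at the lowest value of the table), pdk2b in Control-C column A at 72 hpf (5.28, the others 4.67 to 4.80) and igfbp1a in Control-C column A at 96 hpf (8.87, the others 8.26 to 8.35). For fbp1b the tied values fix this outcome, so the rate of 1 in 20 does not apply to it.

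The NB2 effect differed between 96 and 72 hpf for 5 of 5 members tested, as an interaction term in limma, larger at 96 hpf by 2.90 ± 0.34 for igfbp1a, 1.72 ± 0.22 for pck1, 2.73 ± 0.39 for pdk2b, 1.71 ± 0.28 for g0s2 and 3.38 ± 0.33 for igfbp1b on the log2 scale. In the same contrast 1413 of all 24853 genes tested were called higher and 1615 lower. The members were chosen with these results known, so this is a description.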

How the results depend on the processing

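The 19 member calls at 48 hpf came to 19 with DESeq2, with DESeq2 size factors, with no filter and with the controls of both rounds as 1 group, to 17 with PFAS-5 replicate 1 kept or with only the groups compared, and to 17 to 21 when each replicate was left out. With the collection day as a block there were 20, and with the replicate number as a block 15. The replicate number, shared by labels only (mean correlation 0.038 in Round 1 and 0.043 in Round 2), lost the calls of PCK1 in PFAS-6 (1.13), fbp1b (0.43) and IGFBP1 (0.75) in PFAS-8 and g0s2 in PFAS-12 (1.05). Matched pairs stayed at 0 calls. The 7 NB2 calls were 5 to 8 without single columns, and 5 with no mean trend, and the 4 vehicle calls 3 to 4, with 3 when no filter was used. Of 30 called values 11 lost the call under at least 1 alternative, in 41 of 495 recomputed values, and 0 changed sign. The call of PCK1 in PFAS-7 was lost without replicate 1 or 3 (1.00 and 1.10), and that of fbp1b in PFAS-7 with only the groups compared (−1.04). The NB2 column letters are not tied to the replicate numbers of the labels. With the letter as a block, chosen after seeing the data, there were 7 NB2 calls and 3 vehicle calls, g0s2 being lost between 48 and 72 hpf (0.52, adjusted p = 0.0806 in limma), and columns with the same letter at an age had a mean correlation of −0.010, against 0.002 between letters. Values of members not called passed in 10 cases, among them g0s2 in PFAS-13 with only the groups compared (1.08). Promoter motifs were planned and not run, since no sequence table was at hand. Low counts limit g0s2 and igfbp1b most.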
